A study of Mus musculus with 20 samples.

Results

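Followed here were 10 genes that carry dietary fat through an enterocyte and pack it into lipoproteins: Cd36, Fabp2, Fabp1, Mogat2, Dgat1, Mttp, Apob, Apoa1, Apoa4 and Apoc3. They were picked by name, and all 10 had a row among the 56748 genes of the chow table and among the 31184 genes of the high fat diet (HFD) table. The libraries came from mouse colon, in 5 groups of 4. All groups carried a floxed allele of Pcca, the gene for the alpha chain of the enzyme propionyl-CoA carboxylase. On standard chow, ff mice had no Cre, Vill mice lost Pcca through Villin-Cre, which acts in the intestinal epithelium, and Alb mice lost it through Albumin-Cre, which acts in the liver. These mice were killed at 9 weeks of age. On HFD, with 60% of energy from fat, there were ff and Vill mice, all male by the labels, that ate the diet from 6 weeks of age for 12 weeks and were killed at 18 weeks. Every mouse was fasted for 4 hours, and RNA was taken from flushed, frozen colon sections homogenised whole, in which markers of muscle, vessels and fat were also detected. The sources used here do not say from which stretch of the colon a section was cut. Libraries are named by group and replicate number, as in chow ff 2.

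In the small intestine, fatty acids enter enterocytes partly with the help of Cd36, are bound in the cytosol by the fatty acid binding proteins Fabp2 and Fabp1, and are built back into triglyceride by the acyltransferases Mogat2 and Dgat1. The microsomal transfer protein Mttp loads that triglyceride onto Apob, the scaffold of the chylomicron, whose surface then carries Apoa1, Apoa4 and Apoc3. The colon absorbs little dietary fat, and several of these proteins are also made in the liver (Apob, Mttp, Fabp1 and the apolipoproteins) or in fat and capillary cells (Cd36).

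Every library held transcripts of surface colonocytes, among them the anion exchanger Slc26a3, at 124 CPM or more (reads of the gene scaled to a fixed library total, with TMM factors within each table), and the carbonic anhydrase Car4, at 168.6 CPM or more. The 20 small intestine enterocyte markers were all detected on both diets and summed to 1083 to 1984 CPM. Among them Lct (at most 0.417 CPM) and Slc2a2 (at most 0.536) were near 0, while Alpi reached 66.6 and Gata4 6.24 CPM. A set of 4 libraries, chow ff 2, chow Vill 1, HFD ff 1 and HFD ff 3, stood apart through some genes of ileal bile salt transport and brush border. In that order they held Slc10a2, the ileal bile acid transporter, at 233, 268, 449 and 522 CPM, where the next library, chow Alb 3, had 26.95, and Sis, sucrase-isomaltase, at 32.7, 59.6, 59.7 and 76.9 CPM, where no other library passed 2.02. Not all of the 20 enterocyte markers were raised in this set. The peptide transporter Slc15a1 was lowest on HFD in ff 1 and ff 3, at 5.73 and 11.99 CPM, against at least 34.4 in the other HFD libraries. By the sum of the 20 markers, HFD ff 1 (1413 CPM) stood below HFD Vill 1 (1431). The ileal hormone gene Fgf15 had at most 0.1755 CPM anywhere, and colon genes differed in direction in the 4 libraries. Car1, another colonocyte carbonic anhydrase, was highest there, at 4890 CPM or more, whereas Slc26a3 was lowest, in the same order at 754, 660.4, 124 and 335 CPM, against at least 912.4 in the other chow and 697.9 in the other HFD libraries. The water channel gene Aqp8 was lowest there too, at 471, 371, 4.59 and 38.1 CPM. Sequencing depth was 27.9 to 40.4 M counted reads on chow and 16.9 to 24.4 M on HFD. Pcca lay between 27.7 and 33.6 CPM in chow Vill and between 39.5 and 57.2 CPM in chow ff. On HFD, Pcca was 33.2 to 37.3 CPM in Vill, while the libraries labelled HFD ff 1 and ff 3 had less than every Vill library, at 29.9 and 32.5 CPM, against 53.7 and 59.5 in ff 2 and ff 4. The target gene thus did not separate the HFD groups, and the 2 low ff libraries are those with ileal transporter genes. Xist reads were present in every chow library and nearly absent on HFD, so that diet, age and sex cannot be told apart between the tables.

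The promoters of 3 genes are shown because these genes mark the range of the set. Fabp2 had the highest median per length, Fabp1 is a close relative that stayed near the counting limit, and Apob gave many reads of the set. Each sequence is the 250 bases before the RefSeq start on build GRCm38.p6, at chr3:122894822-122895071, chr6:71199629-71199878 and chr12:7977427-7977676, all on the plus strand, with matches to the motifs named below in capitals.
Fabp2: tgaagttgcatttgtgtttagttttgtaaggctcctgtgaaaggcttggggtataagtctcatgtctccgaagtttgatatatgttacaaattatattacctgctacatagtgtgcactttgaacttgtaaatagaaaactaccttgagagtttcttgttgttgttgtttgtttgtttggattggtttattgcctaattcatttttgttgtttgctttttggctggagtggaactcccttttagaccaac
Fabp1: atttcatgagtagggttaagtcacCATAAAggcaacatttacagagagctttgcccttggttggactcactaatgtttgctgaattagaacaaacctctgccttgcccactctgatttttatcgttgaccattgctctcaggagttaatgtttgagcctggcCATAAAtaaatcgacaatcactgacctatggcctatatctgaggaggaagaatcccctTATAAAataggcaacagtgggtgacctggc
Apob: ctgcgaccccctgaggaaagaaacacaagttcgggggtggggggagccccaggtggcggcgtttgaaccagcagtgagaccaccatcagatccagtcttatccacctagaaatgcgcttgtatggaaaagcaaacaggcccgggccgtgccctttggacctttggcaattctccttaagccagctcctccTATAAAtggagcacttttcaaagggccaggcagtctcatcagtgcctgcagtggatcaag
Of the 10 genes 7 had a promoter entry, all but Apoc3, Mogat2 and Dgat1. Both strands were searched for the letters CAAAGTCCA and CAAAGGTCA, which nuclear receptors of the HNF4 type bind. Also searched were AGATAA, known from GATA factors, and TTTATG, known from CDX factors and shown in capitals as its reverse complement where it lies on the minus strand. The last motif was TATAAA, the TATA box. The Fabp1 window held TTTATG on the minus strand at 226 and 88 bases before the start and TATAAA at 30 bases before it, a TATAAA stood 60 bases before the Apob start, and the Cd36 window held TTTATG 232 bases before its start. The windows of Fabp2, Mttp, Apoa1 and Apoa4 held none of the 5 motifs. Among 32851 windows of the same length, TTTATG was found in 10.8%, TATAAA in 12.4%, AGATAA in 9.99%, CAAAGTCCA in 0.384% and CAAAGGTCA in 0.426%, and these matches are letters only, not evidence of binding.

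Levels differed by several orders of magnitude between the genes. As medians over 12 chow libraries, in CPM per kilobase of gene length, the order was Fabp2 (170.5), Dgat1 (14.7), Apob (5.42), Cd36 (4.06), Mogat2 (0.946), Mttp (0.456), Fabp1 (0.335), Apoa1 (0.317), Apoc3 (0.134) and Apoa4 (0.02). Fabp2 exceeded Dgat1 in 10 of 12 chow libraries, all but Alb 2 and Vill 3. Dgat1 exceeded Apob in 12 of 12 chow libraries and Cd36 exceeded Mogat2 in 12 of 12. Mttp exceeded Fabp1, and Fabp1 exceeded Apoa1, in only 5 of 12, so that these last neighbours could not be ordered. On HFD the medians per kilobase were 315 for Fabp2, 14.9 for Apob, 12.7 for Dgat1, 5.56 for Cd36, 0.797 for Mogat2, 0.785 for Apoa1, 0.492 for Mttp, 0.434 for Fabp1, 0.0958 for Apoc3 and 0.0743 for Apoa4. Apob stood above Dgat1 in 4 of 8 HFD libraries and Fabp2 stood above Apob in 8 of 8. Fabp2, Dgat1, Apob and Cd36 thus had the 4 highest medians on both diets, and the order among the other 6 differed between diets, Apoa1 standing above Mttp in 6 of 8 HFD libraries. Together the 10 genes took 0.0122% to 0.103% of all reads of a chow library and 0.0325% to 0.119% of an HFD library, and Apob with Fabp2 made up 52.8% to 89.5% and 82.9% to 92.3% of those reads.

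**Figure D1:**
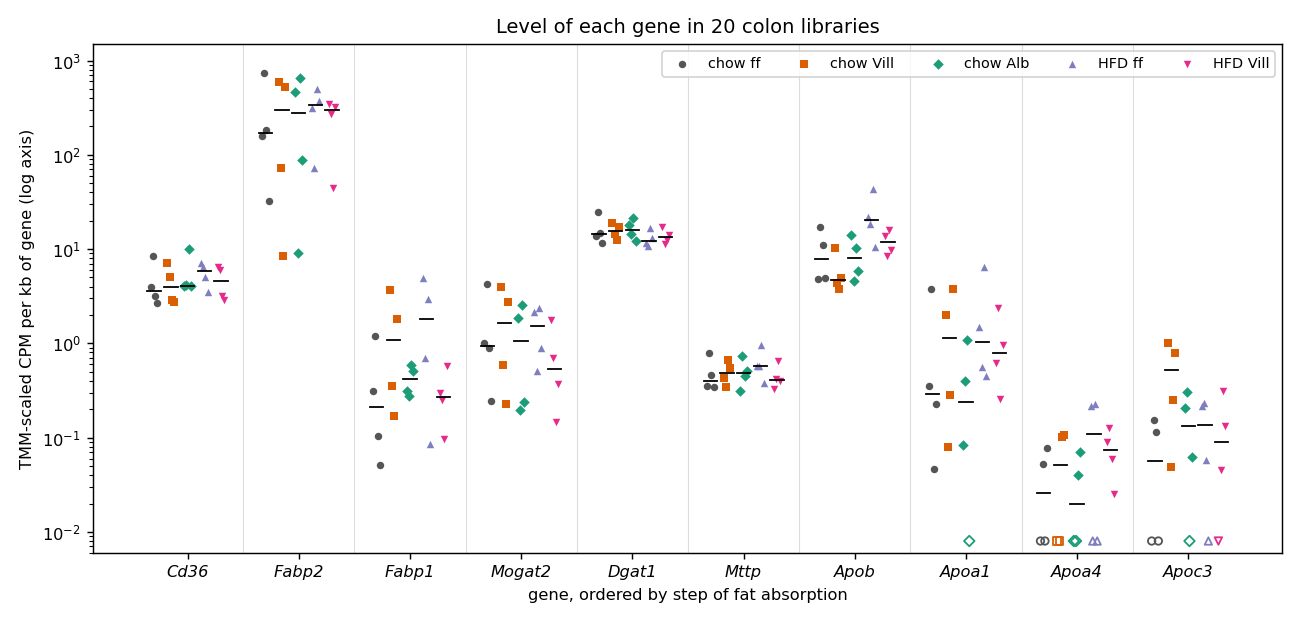
Level of each gene in TMM-scaled CPM per kilobase (log axis), with a point per library, a black bar at each group median above 0, and open symbols at the bottom for libraries without a read. Fabp2 spans the widest range among the abundant genes, Dgat1 the narrowest, and no gene has a group whose points all lie outside another group of the same diet.

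Cd36 encodes a scavenger receptor that takes up long-chain fatty acids. It stood at 14.1, 30.5, 11.45 and 9.71 CPM in chow ff 1 to 4, at 25.6, 18.2, 10.4 and 9.88 in chow Vill, and at 14.7, 14.8, 36.1 and 14.5 in chow Alb. On HFD it was 25.4, 23.3, 18.25 and 12.7 CPM in ff and 22.9, 21.7, 11.5 and 10.5 in Vill. A few chow libraries were high against an otherwise level background, the highest in Alb and the next in ff, and all groups overlapped. The ratio of highest to lowest library was 3.72 on chow and 2.43 on HFD.

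Cd36 is also a gene of adipocytes and capillary endothelium, and the fat content of the pieces varied. The 9 adipocyte markers, all detected, summed to 26.6 to 354 CPM in chow ff, 24.1 to 316 in chow Vill, 47.3 to 290.1 in chow Alb, 45.2 to 133 in HFD ff and 27.4 to 72.4 in HFD Vill. The 4 chow libraries with most Cd36, Alb 3, ff 2, Vill 1 and Vill 2, were also the 4 with most Adipoq, the adipocyte hormone adiponectin, at 17.1, 20.2, 20.4 and 8.53 CPM, against at most 3.82 in the other 8. On HFD the 3 libraries with least Cd36, Vill 4, Vill 3 and ff 4, had the 3 lowest Adipoq values, at 0.0906, 0 and 0.234 CPM. There were exceptions, since HFD ff 3 had the most Adipoq of its diet (3.74 CPM) and the highest adipocyte sum but only 18.25 CPM of Cd36, and by the sum chow Alb 1 (131.7 CPM) stood above chow Vill 2 (127.6). The 8 endothelial markers summed to 59.3 to 114 CPM on chow and 48.0 to 94.8 on HFD. The lowest chow sum was in Vill 1, with 25.6 CPM of Cd36, and the highest in Alb 4, with 14.5. The lowest HFD sum was in ff 3, with 18.25 CPM of Cd36, and the highest in Vill 1, with 22.9. The part of fat or vessels in the level of Cd36 was not tested.

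**Figure D2:**
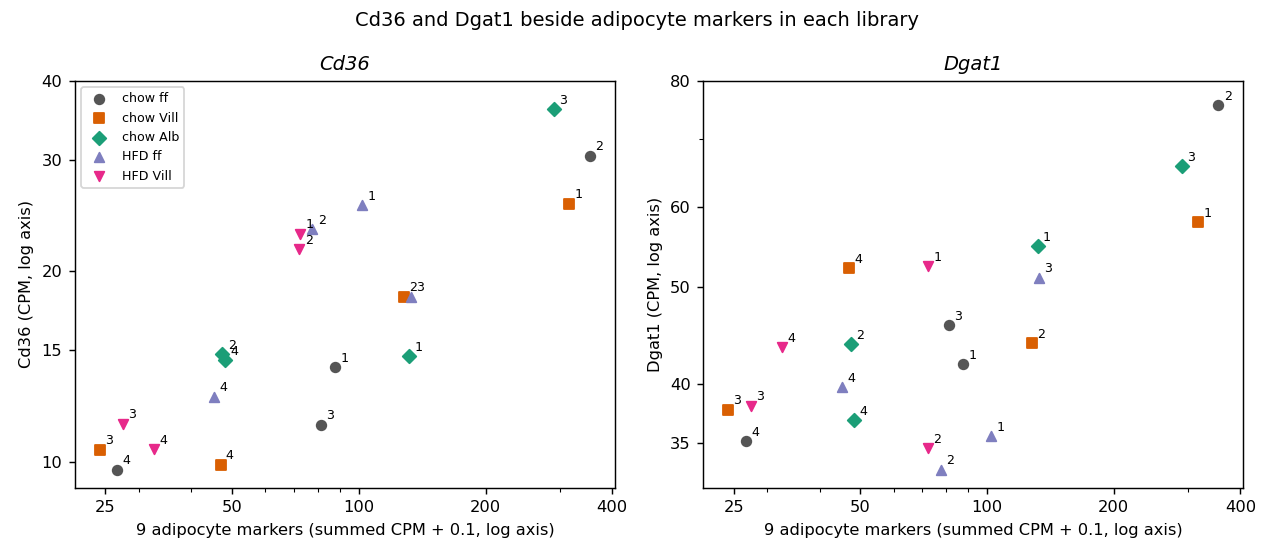
Cd36 and Dgat1 in CPM (vertical, log axis) against the summed CPM of 9 adipocyte markers plus 0.1 (horizontal, log axis), with a symbol per library numbered by replicate and each diet scaled separately. The chow libraries Alb 3, ff 2 and Vill 1 lie at the upper right for both genes, with Cd36 between 25.6 and 36.1 CPM.

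Fabp2, the intestinal fatty acid binding protein, was the most variable of the abundant genes. It measured 151, 721, 178 and 31.5 CPM in chow ff 1 to 4, 568, 69.9, 8.21 and 505 in chow Vill, and 448, 8.73, 635 and 84.3 in chow Alb. On HFD it measured 300.3, 70.4, 482 and 359.6 CPM in ff, and 336, 263, 42.7 and 308 in Vill. Each group held high and low libraries, so that the groups overlapped almost entirely. The highest chow library had 87.8 times the lowest, on 22959 and 353 reads, and the ratio on HFD was 11.3.

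Fabp2 was set beside 4 Hox genes of position along the hindgut, a comparison chosen after the values were seen, and they did not all run the same way. Hoxb13, a homeobox gene of the rear end of the body axis, was lowest in the same 5 chow libraries that were highest in Fabp2, at 7.51 CPM in ff 2, 18.9 in Alb 3, 0.579 in Vill 1, 134 in Vill 4 and 80.5 in Alb 1. The 3 chow libraries with least Fabp2, Vill 3, Alb 2 and ff 4, had the highest Hoxd13, at 118, 151 and 92.7 CPM, and the next library had 42.8. On HFD the libraries lowest in Fabp2, Vill 3 and ff 2, had the highest Hoxb13, at 279 and 274 CPM, but HFD ff 1, with no Hoxb13 read, was not the highest in Fabp2. Hoxd10 went the other way on HFD, where it was highest in ff 1 and ff 3, at 11.6 and 6.14 CPM, and ff 3 had the most Fabp2. On chow, Vill 4, with 505 CPM of Fabp2, was second highest in Hoxd12 (4.44 CPM) and had 5.48 CPM of Hoxd10, more than 8 of the 12 libraries. A library low in Fabp2 and high in Hoxb13 and Hoxd13 for its diet occurred in each of the 5 groups. The 8 general epithelial markers summed to 9770 to 16200 CPM on chow and 8750 to 15100 on HFD, a much narrower range. The 5 chow libraries with the highest sums, 12850 CPM or more against at most 11690, were the 5 highest in Fabp2. On HFD the sum was lowest in ff 1 (8748 CPM), followed by Vill 3 (9522) and ff 2 (9809). The part of epithelial content in the level of Fabp2 was not tested. Bulk RNA does not tell fewer Fabp2-expressing cells from less Fabp2 RNA per cell, and the position of each section was not tested.

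**Figure D3:**
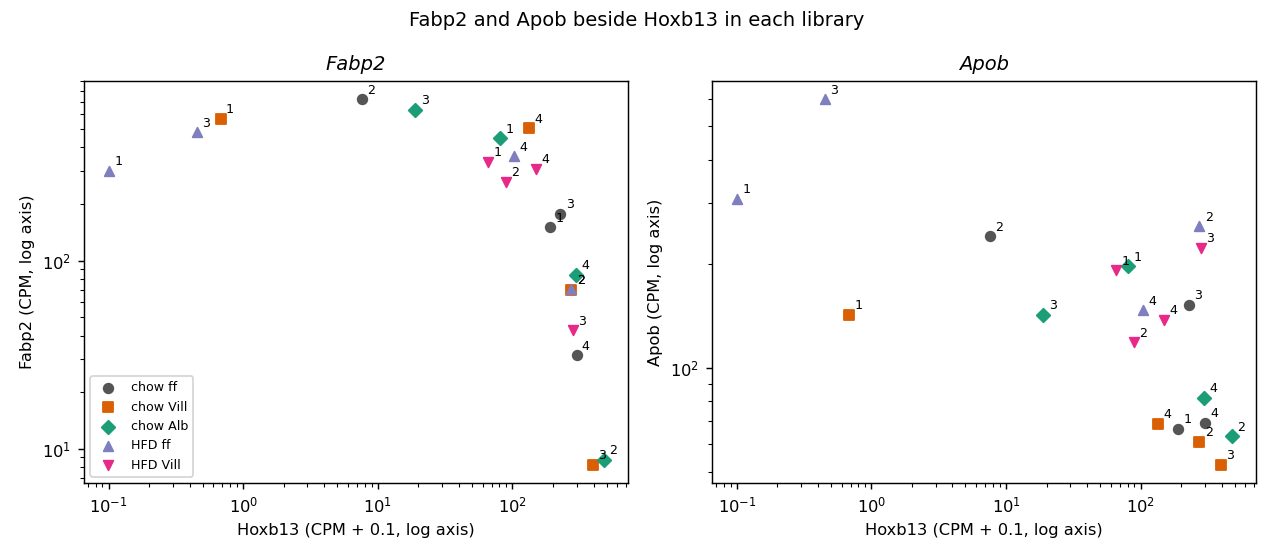
Fabp2 and Apob in CPM (vertical, log axis) against Hoxb13 in CPM plus 0.1 (horizontal, log axis), with a symbol per library numbered by replicate and each diet scaled separately. Fabp2 falls to 8.21 and 8.73 CPM in the 2 libraries with most Hoxb13, chow Vill 3 and chow Alb 2, where Apob is 52.3 and 63.3 CPM. Among HFD libraries, ff 2 and Vill 3 have 257 and 222 CPM of Apob at Hoxb13 levels of 274 and 279 CPM. HFD ff 1 and ff 3 have more Apob, 308 and 598 CPM, at Hoxb13 levels of 0 and 0.351 CPM.

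Fabp1, the liver form of the binding protein and in the small intestine a partner of Fabp2, was close to the counting limit. Reads numbered 6, 21, 2 and 1 in chow ff, 63, 8, 4 and 26 in chow Vill, and 5, 6, 9 and 9 in chow Alb. On HFD they numbered 63, 10, 28 and 1 in ff, and 3, 3, 1 and 7 in Vill. The high libraries were chow Vill 1 and Vill 4, chow ff 2, and HFD ff 1 and ff 3, which include all 4 with ileal transporter genes, and the groups overlapped. In CPM per kilobase Fabp1 reached at most 3.66 on chow and 4.98 on HFD, against at least 8.51 and 44.2 for Fabp2.

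Mogat2 and Dgat1 catalyse the steps that rebuild triglyceride, Mogat2 from monoacylglycerol in enterocytes and Dgat1 the last acylation in many tissues. Mogat2 stood at 1.85, 7.915, 1.62 and 0.454 CPM in chow ff, 7.33, 1.08, 0.419 and 4.98 in chow Vill, 3.40, 0.36, 4.64 and 0.442 in chow Alb, 3.93, 0.936, 4.39 and 1.64 in HFD ff, and 3.215, 1.29, 0.266 and 0.679 in HFD Vill. The 5 chow libraries highest in Mogat2 were also the 5 highest in Fabp2 and in Dgat1. On HFD, ff 3 was highest in Mogat2 and Fabp2, and Vill 1 in Dgat1. Dgat1 stood at 41.9, 75.7, 45.8 and 35.1 CPM in chow ff, 57.9, 44.0, 37.8 and 52.2 in chow Vill, 54.8, 43.8, 65.8 and 36.8 in chow Alb, 35.5, 32.9, 51.1 and 39.8 in HFD ff, and 52.4, 34.6, 38.1 and 43.6 in HFD Vill. Dgat1 was the steadiest of the 10 genes, with a highest to lowest ratio of 2.15 on chow and 1.59 on HFD, against 22.0 and 16.5 for Mogat2. Per kilobase, Dgat1 exceeded Mogat2 by 4.75 to 73.0 times on chow and by 5.42 to 86.0 times on HFD, with no group apart.

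Mttp and Apob assemble the particle. Mttp was low throughout, at 2.17, 4.93, 2.83 and 2.13 CPM in chow ff, 2.67, 2.14, 4.14 and 3.41 in chow Vill, 1.94, 4.505, 2.83 and 3.19 in chow Alb, 3.54, 3.59, 6.02 and 2.38 in HFD ff, and 2.02, 2.57, 3.99 and 2.45 in HFD Vill. Apob was far more abundant, at 66.5, 240.5, 152 and 69.3 CPM in chow ff, 142, 61.0, 52.3 and 68.8 in chow Vill, and 197, 63.3, 142 and 81.8 in chow Alb. On HFD, Apob reached 308, 257, 598 and 147 CPM in ff and 192, 119, 222 and 138 in Vill. The highest library for both genes was chow ff 2 on chow and HFD ff 3 on HFD, and the groups overlapped within each diet. In chow mice, 5 libraries had 142 CPM or more of Apob and the other 7 had 81.8 or less, with ff, Vill and Alb mice on each side, and Apob was above 118 CPM in all 8 HFD libraries. Per kilobase, Apob exceeded Mttp by 5.63 to 45.1 times on chow and 20.5 to 44.2 times on HFD. Mttp shares its locus with Trmt10a on the other strand, at 3.41 to 8.61 CPM, and since the sources used here do not give the strand setting, the reads of these genes are uncertain to that extent.

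Apoa1, Apoa4 and Apoc3, the apolipoproteins of the particle surface, lie next to each other on chromosome 9 and were scarce. Apoa1, the main protein of high density lipoprotein, had 15, 150, 2 and 10 reads in chow ff, 77, 4, 15 and 121 in chow Vill, 3, 19, 37 and 0 in chow Alb, 42, 18, 135 and 12 in HFD ff, and 14, 64, 6 and 26 in HFD Vill. Apoa4, which stabilises growing chylomicrons, had 27 reads over the 12 chow libraries, at most 8 in any, and 27 over the 8 HFD libraries, at most 9. Apoc3, an inhibitor of lipoprotein lipase, had 95 reads on chow, of which 32 lay in Vill 1 and 21 in Vill 4, and 22 reads on HFD. Apoa1 was high in single libraries of several groups and near 0 in others, and Apoa4 and Apoc3 were at or below 3 reads in 8 and 5 of 12 chow libraries and in 5 and 5 of 8 HFD libraries.

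Genes of the liver were seen beside these apolipoproteins in part of the libraries. Alb, the albumin gene, stood at 25.8 CPM in chow Vill 1 and 47.8 in chow Vill 4, against at most 8.31 in the other chow libraries, and Ahsg, a secreted liver glycoprotein, at 2.925 and 2.91 CPM against at most 1.49. Those 2 libraries had the most Apoc3 and Fabp1 reads on chow, whereas chow ff 2, with the most Apoa1 reads, had 0.0942 CPM of Alb. Not all liver markers followed Alb and Ahsg, since Ttr and Cyp2e1 peaked in other chow libraries, at 43.4 and 32.4 CPM. By the sum of the markers, chow Vill 3 (67.5 CPM) stood between Vill 4 (75.2) and Vill 1 (57.4). That library had 11 Apoc3 and 4 Fabp1 reads. On HFD, ff 1 had the most Alb (11.3 CPM) and Ahsg (0.787 CPM) and the most Fabp1 reads (63). HFD ff 3, with 28 Fabp1 reads and the most Apoa1 reads of its diet (135), had the least Alb (0.234 CPM). The 8 liver markers, all detected, summed to 36.1 to 75.2 CPM in chow Vill, 23.7 to 44.8 in chow ff, 20.2 to 55.7 in chow Alb, 6.14 to 58.6 in HFD ff and 11.9 to 57.3 in HFD Vill. Their part in the apolipoprotein and Fabp1 counts was not tested.

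The comparison of Vill with ff on chow asked what loss of Pcca in the gut epithelium does to colon transcripts. None of the 8 fat absorption genes that passed the expression filter was called (edgeR, adjusted p under 0.05), beside 0.00508% of all 19701 genes tested, and 0 had an unadjusted p under 0.05, beside 1.9%. DESeq2 and limma-voom also called 0 of them. Apob was lower in Vill, at 81.1 ± 41.4 against 132 ± 82.4 CPM (mean ± SD, n = 4 each), with a log2 difference of -0.70 and a 95% interval from -1.77 to 0.36 (edgeR adjusted p = 0.9999), and without ff 2 the difference was -0.246. Fabp1 showed a log2 difference of 1.83 (-0.33 to 3.99), on 101 reads in Vill, 63 of them in Vill 1, and 30 in ff. Without Vill 1 the Fabp1 difference was 0.844, and without ff 2 it was 3.18. The narrowest intervals were those of Dgat1 at -0.05 (-0.59 to 0.49), Mttp at 0.04 (-0.72 to 0.79) and Cd36 at -0.04 (-1.01 to 0.94). They still included modest changes in either direction. Fabp2 (0.09), Mogat2 (0.22) and Apoa1 (0.45) had intervals reaching at least 2.09 to each side of 0, so that these included a 4-fold change in either direction. No gene had groups that did not overlap, beside 0.665% of all genes with Vill entirely higher and 0.68% entirely lower. The 8 tested genes split into 5 higher, beside 50.8% of all genes, and 3 lower, beside 49.2%, with a median log2 difference of 0.06 where the median of all genes was 0.003.

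In the Alb mice Pcca is lost from liver and not from gut, and their colons were compared with the same ff libraries. None of the 8 tested genes was called, beside 0% of all genes (edgeR, with 4.4% of all genes and 0 of the 8 at an unadjusted p under 0.05), and DESeq2 and limma-voom called 0 of the 8. Apoa1 had the largest difference, a log2 of -1.50 (-4.66 to 1.65), on 59 reads in Alb and 177 in ff, of which 150 were in ff 2. Cd36 was 20.0 ± 10.7 against 16.4 ± 9.53 CPM (log2 0.28, -0.69 to 1.26), with the excess in Alb 3. The others lay between -0.42 for Mogat2 and 0.12 for Fabp2, with Apob at -0.13 (-1.19 to 0.93) and Dgat1 at 0.02 (-0.52 to 0.56). The adjusted p-values from edgeR ran from 0.9903 to 0.9994, and 0 genes of the set had groups that did not overlap, beside 1.23% of all genes entirely higher in Alb and 1.59% entirely lower. Of the 8 genes 5 were higher in Alb, beside 50.1% of all genes, and 3 lower, beside 49.9%, with a median log2 difference of 0.029 where the median of all genes was 0.

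Vill and Alb on chow were also set against each other, which shares libraries with both comparisons above. Again 0 of 8 genes were called, beside 0.00508% of all genes (edgeR, with 8.87% of all genes and 0 of the 8 at an unadjusted p under 0.05), and DESeq2 and limma-voom called 0 of the 8. Apoa1 (log2 1.95, -1.23 to 5.13) and Fabp1 (log2 1.79, -0.37 to 3.96, adjusted p = 0.627) were higher in Vill on few reads, 217 against 59 and 101 against 29. Apob (-0.58, -1.64 to 0.49), Cd36 (-0.32), Dgat1 (-0.07), Fabp2 (-0.03) and Mttp (-0.01) were lower and Mogat2 (0.64) higher, all with intervals across 0. The non-overlap count was 0, beside 2.59% of all genes higher and 2.12% lower. In sign, 3 genes were higher in Vill, beside 52.8% of all genes, and 5 lower, beside 47.2%, with a median of -0.023 against 0.019 for all genes.

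On HFD, Vill was again compared with ff, and 7 of the 10 genes passed the filter, without Fabp1, Apoa4 and Apoc3. Apob was lower in Vill, at 168 ± 47.8 against 328 ± 193 CPM (mean ± SD, n = 4 each), a log2 difference of -0.97 (SE 0.40, -1.87 to -0.06). Its unadjusted edgeR p was 0.0388, beside 3.45% of all genes under 0.05, and its adjusted p was 0.9318, so it was not called. Leaving out ff 3 alone gave -0.512. None of the 7 genes was called, beside 0.00564% of 17715 genes, nor by DESeq2 or limma-voom. Mogat2 (-0.997, -2.69 to 0.69), Apoa1 (-1.05, -3.17 to 1.06), Mttp (-0.49, -1.27 to 0.28), Fabp2 (-0.35, -1.86 to 1.16) and Cd36 (-0.26, -0.98 to 0.46) were lower without passing, and Dgat1 stood at 0.08 (-0.31 to 0.48). Thus 6 of 7 genes were lower, with a median log2 difference of -0.49, beside 50.7% of all genes lower and a median of -0.004, and 1 was higher, beside 49.3%. The 0 genes with groups that did not overlap stood beside 1.22% of all genes entirely higher in Vill and 0.909% entirely lower.

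The libraries labelled HFD ff 1 and ff 3, which held the ileal transporter genes and less Pcca than every HFD Vill library, were the 2 highest HFD libraries for Apob, Mogat2 and Fabp1, and ff 3 was the highest for Mttp and Apoa1. Without these 2 libraries, the Apob difference was -0.26 (edgeR unadjusted p = 0.4205, adjusted p = 0.9999), Mttp -0.11 and Cd36 -0.11. Mogat2 (0.08), Fabp2 (0.14) and Apoa1 (1.04) then lay above 0, as did Dgat1 (0.22). Of the 6 genes lower in Vill on HFD, 3 kept that sign without these libraries, each with a smaller difference. On chow, where the ileal genes were high in ff 2 and Vill 1, leaving out this pair left Apob at -0.66 and gave Apoa1 2.67, Mogat2 0.70, Fabp2 0.69, Mttp 0.44, Cd36 0.13 and Dgat1 0.125, none called.

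**Figure D4:**
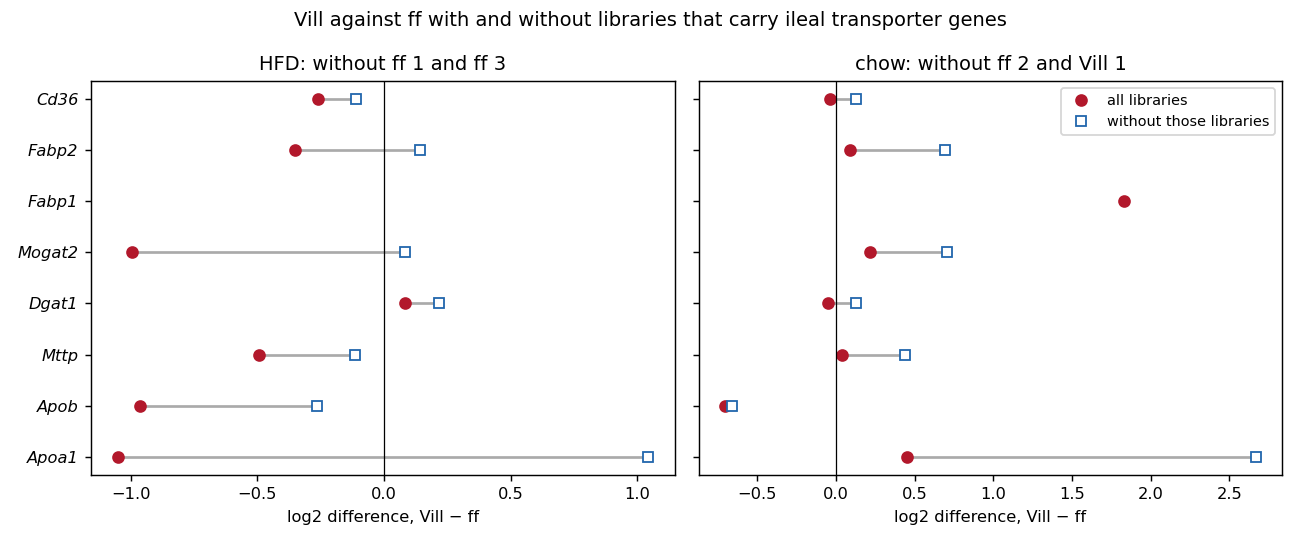
Log2 difference of Vill against ff (horizontal) for each tested gene with all libraries (filled) and without the libraries high in ileal transporter genes (open), for HFD at the left and chow at the right, on separate scales. On HFD the values for Apob move from -0.97 to -0.26 and those for Apoa1 from -1.05 to 1.04. Fabp1 passed the filter only on chow with all libraries.

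Whether the Vill effect differed between HFD and chow was tested in a model over ff and Vill mice of both diets (16 libraries), where diet goes together with age and sex. None of the 8 tested genes was called, beside 0% of 19516 genes (edgeR), nor by DESeq2 or limma-voom, and 1 of the 8 had an unadjusted p under 0.05, beside 2.54% of all genes. That gene was Fabp1, with a difference between effects of -4.61 (-8.08 to -1.13, unadjusted p = 0.01292, adjusted p = 0.9999), made of 101 reads in Vill against 30 in ff on chow and 14 against 102 on HFD. Of those reads, 63 lay in chow Vill 1, 63 in HFD ff 1 and 28 in HFD ff 3. Without the 4 libraries with ileal genes the Fabp1 difference was -2.61 (unadjusted p = 0.1165). The other genes lay between -1.49 for Apoa1 and 0.14 for Dgat1, and Apob at -0.26 (-1.67 to 1.16). For 7 of the 8 genes the log2 difference between Vill and ff was lower on HFD than on chow, that is less positive or more negative, beside 51.9% of all genes, and for 1 it was higher, beside 48.1%, with a median of -0.476 where that of all genes was -0.013.

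**Figure D5:**
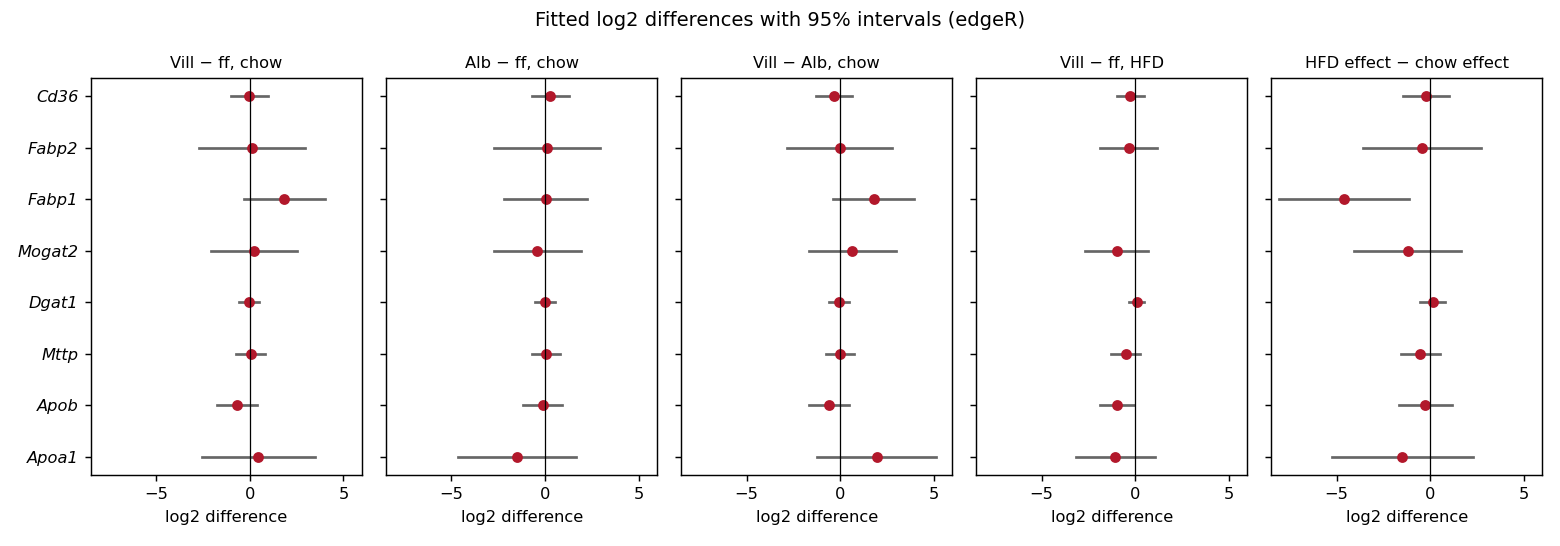
Fitted log2 differences with 95% intervals from edgeR for the 8 tested genes in each comparison, with Fabp1 absent from the HFD panel because it did not pass the filter. All intervals cross 0 except Apob on HFD (-1.87 to -0.06) and Fabp1 in the difference between diets (-8.08 to -1.13), and neither was called.

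The authors' deposited table called none of the 10 genes, its smallest adjusted p among them being 0.571, for Fabp1 in Vill against Alb. In the authors' deposited table Apob differed by -0.71 for Vill against ff on chow and by -0.96 on HFD, each with an adjusted p of 1. The authors' deposited table also lists the genes filtered out here, with Fabp1 at -2.83 on HFD and Apoc3 at 2.97 on chow for Vill against ff, again with an adjusted p of 1.

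Beyond the 10 genes, 33 further genes of fat absorption were read in the same fits, covering transporters, acyl-CoA synthetases, lipid droplet coats, secretion factors and regulators. In each comparison 30 of the 33 were tested and 0 were called by edgeR, with 0, 2, 1, 1 and 0 of them at an unadjusted p under 0.05 in the order used above, beside 1.9%, 4.4%, 8.87%, 3.45% and 2.54% of all genes. Their median log2 differences were 0.025, 0.004, 0.031, -0.079 and -0.021, beside 0.003, 0, 0.019, -0.004 and -0.013 for all genes. The smallest p-value belonged to Apoe, a ligand for lipoprotein receptors made by many cells including macrophages, which on HFD lay between 77.6 and 93.0 CPM in Vill and between 102 and 116 in ff. The Apoe groups did not overlap, the only such gene of the 30 on HFD, beside 0.909% of all genes entirely lower in Vill, and its log2 difference of -0.40 (-0.60 to -0.19, edgeR unadjusted p = 0.001745) had an adjusted p of 0.9318. Abca1, the cholesterol exporter, was lower in Vill than in Alb on chow without overlap (log2 -0.52, -0.89 to -0.15, adjusted p = 0.5152), 1 of 30 genes, beside 2.12% of all genes entirely lower. Surf4, a cargo receptor for lipoprotein export, differed by -0.17 between Alb and ff, again 1 of 30 genes without overlap, beside 1.59% of all genes entirely lower, and was 0.12 higher in Vill than in Alb without overlap, beside 2.59% entirely higher. Acsl5 and Acsl3, which activate fatty acids, differed by -0.23 and 0.30 between Alb and ff (adjusted p = 0.9903 for each). Ppara, the fatty acid sensing receptor, was 45.9 and 63.3 CPM in HFD ff 1 and ff 3 and between 6.98 and 15.15 in the other 6 HFD libraries, and Tm6sf2, a secretion factor, was lowest in those 2 libraries, at 5.03 and 7.31 CPM. Apoc2, a lipase cofactor, had 3 reads or fewer in every library.

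Profiles over all 20 libraries were compared among Apob, Fabp2, Mogat2, Dgat1, Cd36 and Mttp. Likeness was measured as the root mean square difference of log2 CPM, with a pseudocount of 0.1 CPM and each gene centred within its table. This difference also grows where genes rise and fall together but by different amounts. Between Fabp2 and Mogat2 it was 0.92, smaller than the spread of either gene around its own mean (1.87 and 1.39), while Fabp2 and Apob differed by 1.6. By this measure Dgat1 was nearest to Cd36 (0.475) and Mttp (0.491), both larger than its own spread of 0.296. Among 11359 other genes with a mean of at least 5 CPM in each table, the closest to Apob were Ptprr (0.382), a receptor tyrosine phosphatase, Btnl6 (0.394), a butyrophilin-like protein, H2-Q2 (0.397), Adprm (0.409) and Gm15331 (0.433), beside a median of 0.762. H2-Q2 belongs to a family of near-identical class I histocompatibility genes, so its count is uncertain. The closest to Cd36 were Gask1b (0.344), Gng11 (0.373), Armh4 (0.379), Lipe (0.383), the hormone-sensitive lipase of adipocytes, and Fam219a (0.391), beside a median of 0.608. For Fabp2, examined after its values were seen, they were Slc3a1 (0.328), a cystine transporter subunit, Hsd17b13 (0.512), a lipid droplet protein, Cpn1 (0.522), Emp1 (0.562) and B3gnt6 (0.604), a mucin glycosyltransferase, beside a median of 1.9.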

How the data were processed

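The deposited tables, per the file headers, hold raw read counts per gene for the 12 chow and the 8 HFD libraries, the gene length in bases, and for each comparison the authors' log2 fold change and adjusted p-value, used here only to stand beside the new tests. Another 28 per-sample columns were not used. The build mm39, edgeR 3.22.5, DESeq2 1.20.0, featureCounts 1.5.0-p3 and HISAT2 2.0.5 are named in the submitters' processing notes, and the annotation release and strand setting are not given in the sources used here.

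The main test was the quasi-likelihood test of edgeR 4.0.16 in R 4.3.3, run after TMM scaling and filterByExpr at its defaults: the 12 chow libraries in a single fit, the 8 HFD libraries in another, and the 16 ff and Vill libraries over the 31184 shared genes for the difference between diets. The Benjamini-Hochberg adjustment covered every tested gene, with calls below 0.05. Of the 10 genes, the filter kept 8 in the chow fit, 7 in the HFD fit and 8 in the joint fit. CPM were scaled by TMM factors within each table. All 10 genes are described, and of the further fat absorption genes the 3 with the smallest p in each comparison, along with the markers read beside a result and the 5 closest profiles to Apob and Cd36. Apoc2 and the profiles for Fabp2, the Hox comparison and the fits without chow ff 2 and Vill 1 were chosen after the values were seen. The genes and lists were chosen with earlier results of these data known. Labels number the replicates without saying how the mice were housed or prepared, so p-values measure the spread between these samples. Fits were also run on simulated data with known changes, and the share of these recovered is not reported here. DESeq2 1.42.0, limma-voom (limma 3.58.1), other scalings, no filter, a replicate block and left-out libraries were the alternatives. Promoter sequences are RefSeq's on GRCm38.p6. Some members of the marker lists are not reported.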

Additional observations from a re-analysis of the deposited data

Results flagged for a closer look

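Over 50 sets of 4 libraries (a gene in a group), a library standing apart from the other 3 was looked for by Dixon's criterion, the gap to the nearest library as a share of the whole range with a critical value of 0.829, which chance alone passes in about 1 in 20 sets. It was passed in 2 sets. Apoa1 in chow ff 2 stood at 4.711 CPM, on 150 reads, against 0.0579 to 0.434 CPM in the other ff libraries of that diet, a gap of 0.919 of the range. That library is among the 4 with ileal transporter genes, with Slc10a2 at 233 CPM. Cd36 in chow Alb 3 stood at 36.13 CPM, on 996 reads, against 14.5 to 14.8 CPM in the other Alb libraries, a gap of 0.986 of the range. That library had 17.1 CPM of Adipoq, where the other Alb libraries had at most 1.53. Neither the part of ileal genes nor that of fat was tested.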

How the results depend on the processing

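None of the 10 genes was called in any of the 99 alternative fits, the fit without an expression filter included, in which all 10 were tested. Among those that passed the filter in the main fit of a comparison, the lowest adjusted p was 0.546, and for Apob on HFD the adjusted p ranged from 0.683 to 1. Of 771 log2 differences under these alternatives 689 kept the sign reported and 82 did not, none of those above 1.044 in size. Scaling by library size alone changed the values of a library by a factor of 0.913 to 1.06, little beside the spread between libraries. That it moved 0 of 20 medians by an SD is therefore no test of the levels. Over all genes, DESeq2 called 3, 11, 90, 2 and 0 genes in the 5 comparisons where edgeR called 1, 0, 1, 1 and 0.

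Signs turned as follows. With limma-voom, Fabp2 stood at -0.45 (Vill against ff, chow), -0.37 (Alb against ff) and 0.009 (difference between diets), and Cd36 at 0.02 (Vill against ff, chow). With the replicate block, Cd36 was 0.006 for Vill against ff on chow, Mttp 0.063 and Fabp2 0.171 for Vill against Alb, and Fabp2 0.304 for the difference between diets. The block changed no call. Same-numbered libraries of 2 groups deviated with correlations from -0.571 to 0.472, and in 4 of 16 pairs a library correlated best with its own number, so the numbers were not taken as pairing the mice. Without HFD ff 1 and 3, Vill against ff gave Apoa1 1.044, Fabp2 0.143 and Mogat2 0.081, and with chow ff 2 out as well Dgat1 was -0.037 for the difference between diets. Without chow ff 2 and Vill 1, Dgat1 was 0.125 and Cd36 0.129 for Vill against ff, Apob 0.335, Apoa1 0.883 and Mogat2 0.749 for Alb against ff, and Mttp 0.049 and Mogat2 -0.045 for Vill against Alb. Without all 4 libraries, Apob was 0.37 for the difference between diets. For these, fewer samples were fitted, and beyond that the cause was not tested.

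Leaving out each library in turn gave these ranges for genes whose sign turned. For Vill against ff on chow they were Apoa1 -0.535 to 2.836, Cd36 -0.373 to 0.439, Dgat1 -0.201 to 0.223, Fabp2 -0.483 to 1.262, Mogat2 -0.48 to 1.389 and Mttp -0.144 to 0.37. For Alb against ff they were Apoa1 -2.72 to 0.895, Apob -0.464 to 0.351, Cd36 -0.169 to 0.779, Dgat1 -0.135 to 0.312, Fabp1 -0.34 to 1.402, Fabp2 -0.59 to 1.307, Mogat2 -1.092 to 0.762 and Mttp -0.181 to 0.405. For Vill against Alb they were Cd36 -0.659 to 0.115, Dgat1 -0.214 to 0.071, Fabp2 -0.604 to 0.666, Mogat2 -0.053 to 1.292 and Mttp -0.201 to 0.199. On HFD they were Apoa1 -1.834 to 0.322 and Dgat1 -0.037 to 0.215. For the difference between diets they were Apob -0.723 to 0.207, Cd36 -0.704 to 0.102, Dgat1 -0.144 to 0.275 and Fabp2 -1.606 to 0.138. Values that kept their sign also moved. For Vill against ff, Apob ranged from -1.138 to -0.246 and Fabp1 from 0.844 to 3.184 on chow, and on HFD Apob ranged from -1.207 to -0.512, Mogat2 from -1.847 to -0.656, Mttp from -0.721 to -0.213, Cd36 from -0.452 to -0.101 and Fabp2 from -0.673 to -0.001. For Vill against Alb, Apoa1 ranged from 0.971 to 3.154, Apob from -1.015 to -0.241 and Fabp1 from 0.813 to 2.162. For the difference between diets, Apoa1 ranged from -3.875 to -0.1, Fabp1 from -5.957 to -3.623, Mogat2 from -2.382 to -0.516 and Mttp from -0.868 to -0.238. Few reads bear on Apoa4 (27 on chow), Apoc3 (95 on chow) and Fabp1 on HFD (116), where libraries also differ widely.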
